A study of Mus musculus with 20 samples.

Results

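The IgG Fc receptor genes are Fcgr1, Fcgr3, Fcgr4, Fcgr2b, Fcer1g and Fcgrt. They were taken by gene symbol from both deposited count tables, and all 6 were found among 55486 genes. Bulk RNA was sequenced from bone marrow and kidney of C57BL/6 mice that were 10 weeks old at the start. For 8 weeks the mice were injected intraperitoneally with the platinum chemotherapy oxaliplatin (10 mg/kg, dissolved in 5% dextrose) or, as vehicle, with 5% dextrose alone. There were 5 libraries for each tissue and treatment, 20 in all, and the labels call the libraries of a group biological replicates. The labels name no transgene or deletion in either group. Total counts ranged from 30660153 to 41140527 in bone marrow and from 24393007 to 30925430 in kidney. Both sexes were used in the study according to its methods, but all 20 libraries held RNA of Y-linked genes, with a mean log2 CPM between 4.26 and 5.42 over Ddx3y, Uty, Kdm5d and Eif2s3y. The X-linked gene Xist was at most 1.55 log2 CPM.

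Fc receptors bind the constant part of antibodies and so connect IgG to the cells that act on it. In the mouse, Fcgr1, Fcgr3 and Fcgr4 encode activating receptors that signal through the shared gamma chain encoded by Fcer1g, whose phosphorylated tyrosine motif recruits the kinase Syk. Fcgr2b encodes the inhibitory receptor, which carries its own inhibitory motif, recruits the phosphatase SHIP1 (Inpp5d) and sets the threshold for activation on macrophages, neutrophils and B cells. Fcgrt encodes the neonatal Fc receptor, which pairs with beta-2 microglobulin and returns IgG and albumin from endosomes instead of letting them be degraded.

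On GRCm38, 4 of the genes lie within 276 kb of chromosome 1. Fcgr2b spans chr1:170958617-170976547, Fcgr4 chr1:171018920-171029761, Fcgr3 chr1:171051174-171064935 and Fcer1g chr1:171229572-171234365. Fcgr4 is read from the plus strand and the others from the minus strand. Fcgr1 lies at chr3:96282909-96293969 and Fcgrt at chr7:45092990-45103851, both on the minus strand. An antisense gene, Gm38204, shares 155 exonic bases with Fcgr2b and had 9 to 47 counts in bone marrow and 11 to 33 in kidney. Whether counting used the strand is not given in the sources used here, so reads of this pair cannot be told apart.

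The 250 bases before the RefSeq start site (GRCm38.p6) are shown for the 3 activating receptors and, for contrast, for Fcgr2b and Fcer1g, since the activating receptors moved with Fcgr2b but by different amounts and Fcer1g did not rise with them in bone marrow. Capitals mark matches on either strand to 3 motifs: GAGGAA, the box bound by the myeloid factor PU.1; TTCNNNGAA, the gamma-interferon activated site; and the interferon-stimulated response element, searched as GAAA, NN and GAAA in a row. No match overlapped another in these windows.
Fcgr1, chr3:96293970-96294219, minus strand: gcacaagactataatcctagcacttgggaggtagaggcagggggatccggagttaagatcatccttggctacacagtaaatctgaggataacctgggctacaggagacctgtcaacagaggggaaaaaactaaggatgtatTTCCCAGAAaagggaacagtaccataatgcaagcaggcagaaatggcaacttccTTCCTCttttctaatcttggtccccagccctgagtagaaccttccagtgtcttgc
Fcgr3, chr1:171059404-171059653, minus strand: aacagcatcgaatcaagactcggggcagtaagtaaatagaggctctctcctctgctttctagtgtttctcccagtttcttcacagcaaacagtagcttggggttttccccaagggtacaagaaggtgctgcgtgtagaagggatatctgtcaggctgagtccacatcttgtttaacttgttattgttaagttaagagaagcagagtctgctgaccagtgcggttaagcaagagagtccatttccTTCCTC
Fcgr4, chr1:171018676-171018925, plus strand: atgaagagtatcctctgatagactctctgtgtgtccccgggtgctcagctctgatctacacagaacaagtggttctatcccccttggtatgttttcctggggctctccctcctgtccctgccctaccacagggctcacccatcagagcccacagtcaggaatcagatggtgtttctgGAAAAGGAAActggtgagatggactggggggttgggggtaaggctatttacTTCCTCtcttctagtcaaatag
Fcgr2b, chr1:170976072-170976321, minus strand: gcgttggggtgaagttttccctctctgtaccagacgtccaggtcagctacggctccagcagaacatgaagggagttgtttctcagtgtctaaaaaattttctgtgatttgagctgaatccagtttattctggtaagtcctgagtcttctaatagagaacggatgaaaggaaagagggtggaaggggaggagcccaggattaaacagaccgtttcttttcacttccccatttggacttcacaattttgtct
Fcer1g, chr1:171234350-171234599, minus strand: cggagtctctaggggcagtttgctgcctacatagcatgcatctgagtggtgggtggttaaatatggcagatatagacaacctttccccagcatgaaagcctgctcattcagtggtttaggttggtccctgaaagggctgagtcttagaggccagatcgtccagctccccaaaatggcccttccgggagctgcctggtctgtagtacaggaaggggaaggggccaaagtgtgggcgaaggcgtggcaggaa
The GAGGAA match stood in all 3 activating receptor windows, 55, 6 and 22 bases before the start site of Fcgr1, Fcgr3 and Fcgr4, each time as its reverse complement. It was absent from the windows of Fcgr2b, Fcer1g and Fcgrt. Of 32851 windows of the same length, 23.3% held it. Fcgr1 also held the gamma-interferon activated site letters, which 7.02% of windows held, and Fcgr4 the response element letters, which 2.98% held. Fcgr3 has 2 RefSeq windows in the table. The first is shown, and the second (chr1:171059395-171059644) holds the same GAGGAA match 15 bases before its start. All 6 genes matched the promoter table. Both Fcgr3 windows and the Fcgr2b window lie wholly inside the gene spans given above. Their RefSeq start sites are therefore downstream of the outermost start of those spans. A match describes letters only.

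Fcgr2b and Fcgr3 are near copies in part of their coding sequence, which is shown because it limits how reads of the inhibitory and an activating receptor can be separated. The 2 runs below are the most similar 150 bases, from exons 5 and 6 of Fcgr2b (chr1:170967980-170968103 and chr1:170966675-170966700) and exons 3 and 4 of Fcgr3 (chr1:171057691-171057814 and chr1:171054168-171054193), read on the minus strand, and the capital marks the only base that differs.
Fcgr2b: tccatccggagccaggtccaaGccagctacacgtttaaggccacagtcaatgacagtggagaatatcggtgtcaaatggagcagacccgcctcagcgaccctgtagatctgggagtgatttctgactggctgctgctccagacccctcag
Fcgr3: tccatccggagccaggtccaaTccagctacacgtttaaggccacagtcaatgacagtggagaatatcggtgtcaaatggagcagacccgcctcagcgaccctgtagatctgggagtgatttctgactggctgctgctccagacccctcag
The longest identical run was 129 bases. In the GENCODE M21 coding transcripts, 166 of the 1627 distinct 50-base windows of Fcgr3 (10.2%) also occurred in another gene, all of them in Fcgr2b, against 249 of 3708 for Fcgr2b (6.72%) and 0 for Fcgr1, Fcgr4, Fcer1g and Fcgrt. By the study's methods only reads with a single, unambiguous alignment were counted, so a read wholly inside an identical run would enter neither gene. The read length is not given in the sources used here.

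In vehicle-treated mice the 2 tissues held the receptors at different levels and in a different order. Levels between genes are compared per kb of exon, as CPM (counts scaled to library size, here by the TMM method over all 20 libraries). In bone marrow the order was Fcer1g (189 ± 10.5 CPM per kb, SD, n = 5), Fcgr3 (67.1 ± 4.66), Fcgrt (23.3 ± 2.66), Fcgr2b (12.6 ± 1.23), Fcgr4 (12.6 ± 1.04) and Fcgr1 (3.58 ± 0.762). Fcgr2b and Fcgr4 overlapped, and the other neighbours did not. In kidney, Fcgrt led by far at 180 ± 8.15 CPM per kb, followed by Fcgr2b (6.89 ± 0.598), Fcer1g (4.32 ± 0.756), Fcgr3 (2.25 ± 0.312), Fcgr4 (1.08 ± 0.352) and Fcgr1 (0.324 ± 0.121), with no overlap between neighbours. The same order was found with the length of the longest coding transcript, a length added after the data were seen. With that length Fcgr2b in vehicle bone marrow was at 20.6 ± 2.02 CPM per kb, and it did not overlap Fcgr4.

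Levels of the 5 genes other than Fcgrt were higher in vehicle bone marrow than in vehicle kidney, with no overlap of libraries. The level in CPM was 43.7 times higher for Fcer1g, 29.8 times for Fcgr3, 11.6 times for Fcgr4 and 11.1 times for Fcgr1, but 1.83 times for Fcgr2b. Fcgrt was 7.75 times higher in kidney. Among the 4 receptors that bind IgG at the cell surface, Fcgr3 made up 70.0% ± 0.647 (SD, n = 5) of the summed CPM per kb in vehicle bone marrow and Fcgr2b 13.2% ± 1.17. In vehicle kidney Fcgr2b made up 65.4% ± 3.50 and Fcgr3 21.3% ± 2.65. By the longest coding transcript, the vehicle share of Fcgr2b was 16.8% in bone marrow and 72.4% in kidney.

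**Figure D1:**
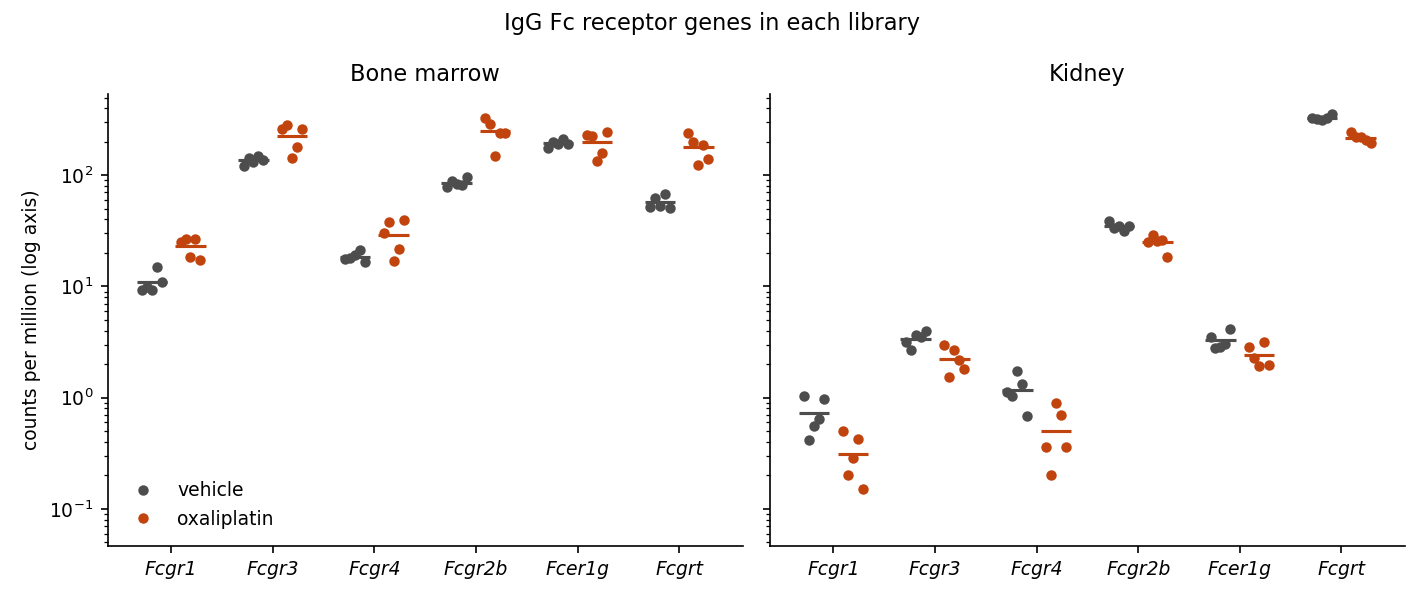
TMM-scaled CPM (log axis) of the 6 genes in each bone marrow (left) and kidney (right) library, with the group mean as a line. In bone marrow the oxaliplatin libraries lie above all vehicle libraries for Fcgr1, Fcgr2b and Fcgrt, and in kidney they lie below all vehicle libraries for Fcgr2b and Fcgrt.

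Bone marrow was compared to ask how oxaliplatin changed the activating and the inhibitory receptors. After oxaliplatin, Fcgr2b was 2.92-fold higher, Fcgr1 2.11-fold, Fcgr3 1.65-fold and Fcgr4 1.58-fold, and the neonatal receptor Fcgrt was 3.10-fold higher, whereas the shared gamma chain Fcer1g was 1.02-fold. A gene was called at an adjusted p under 0.05 in edgeR's quasi-likelihood test (Benjamini-Hochberg over 22363 genes) and a change beyond 1.5-fold. By this rule 5 of the 6 genes were called higher, where 11.6% of all tested genes were, and 0 were called lower, where 11.8% were. With library size as the only scaling, the median of all genes rose by 0.146 log2 units, and higher calls made up 63.4% of all calls in place of 49.6%. The median log2 change was 0.90 over the 6 genes and -0.04 over all tested genes. These are bulk samples, in which fewer cells of a type and less RNA per cell cannot be told apart.

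Among the activating receptors, Fcgr1, the high-affinity receptor, stood at 9.21, 9.95, 9.23, 15.1 and 10.9 CPM in the 5 vehicle libraries and at 25.2, 26.9, 18.5, 26.7 and 17.4 CPM in the oxaliplatin libraries. No oxaliplatin library overlapped the vehicle libraries, as held for 11.4% of tested genes in this direction. The log2 fold change was 1.08 ± 0.174 (SE, adjusted p = 3.7e-04, edgeR). Fcgr3, the low-affinity receptor of neutrophils, macrophages and NK cells, stood at 121, 143, 132, 149 and 138 CPM with vehicle and at 262, 284, 142, 178 and 260 CPM with oxaliplatin. In 4 of 5 oxaliplatin libraries it was above every vehicle library, and replicate 3 lay within their range (log2 fold change 0.72 ± 0.168, adjusted p = 0.00487, edgeR). Fcgr4, which binds IgG2 subclasses on monocytes, macrophages and neutrophils, stood at 17.5, 18.0, 19.1, 21.3 and 16.5 CPM with vehicle and at 30.0, 38.0, 16.9, 21.9 and 39.4 CPM with oxaliplatin. It was again above every vehicle library in 4 of 5 and lowest in replicate 3 (log2 fold change 0.66 ± 0.203, adjusted p = 0.0238, edgeR). With the level of Y-linked genes as a covariate, which was 5.28 to 5.42 with vehicle and 4.61 to 5.29 with oxaliplatin, Fcgr3 (0.46, adjusted p = 0.0570) and Fcgr4 (0.23, adjusted p = 0.314, edgeR) were not called. That level was 5.29 and 5.28 in oxaliplatin replicates 3 and 4 and 4.61 to 5.19 in replicates 1, 2 and 5. The covariate thus overlapped between the treatments only through oxaliplatin replicates 3 and 4, and was tied to treatment in part. Fcgr1, Fcgr2b and Fcgrt stayed called with it. Leaving out 1 library ended the call of Fcgr4 in 5 of 10 cases, vehicle replicates 1, 2 and 5 and oxaliplatin replicates 2 and 5, with a log2 fold change of 0.55 to 0.65 in these.

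The inhibitory receptor Fcgr2b stood at 77.9, 88.6, 83.3, 81.3 and 97.0 CPM with vehicle and at 330, 290, 149, 242 and 238 CPM with oxaliplatin. Every oxaliplatin library was above every vehicle library, replicate 3 the least. The log2 fold change was 1.54 ± 0.172 (adjusted p = 1.95e-05, edgeR). Fcgr2b is also a gene that the study itself names from these libraries, so its rise is not independent of that choice.

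The signalling chain Fcer1g stood at 175, 198, 190, 210 and 192 CPM with vehicle and at 228, 226, 133, 158 and 245 CPM with oxaliplatin. None of the oxaliplatin libraries lay within the vehicle range: replicates 1, 2 and 5 were above it, and replicates 3 and 4 below it. The log2 fold change was 0.035 ± 0.153 (adjusted p = 0.888, edgeR). Its sign turned when oxaliplatin replicate 1, 2 or 5 was left out. Fcgrt stood at 52.2, 62.5, 53.3, 67.8 and 51.2 CPM with vehicle and at 242, 199, 124, 187 and 139 CPM with oxaliplatin, with no overlap (log2 fold change 1.63 ± 0.170, adjusted p = 1.1e-05, edgeR). Its estimate was the highest of the 6 in bone marrow.

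**Figure D2:**
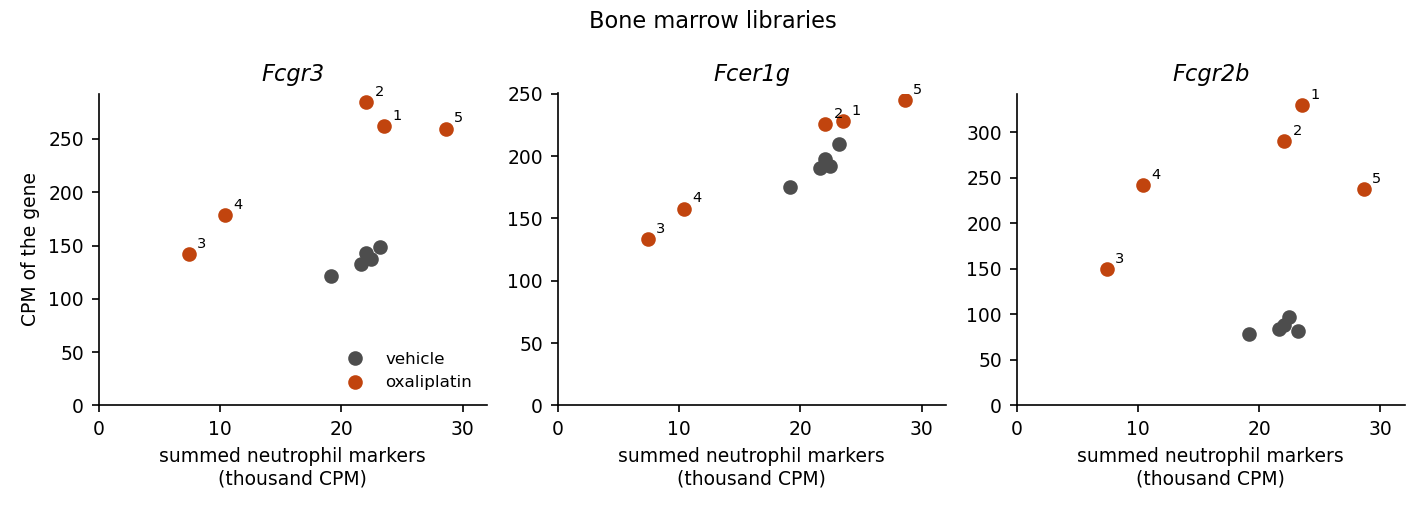
Level of Fcgr3, Fcer1g and Fcgr2b (CPM) against the summed CPM of 13 neutrophil markers in each bone marrow library, with oxaliplatin libraries numbered by replicate. Oxaliplatin replicates 3 and 4 have the lowest neutrophil marker sums of all 10 libraries, the lowest Fcer1g of all 10 and the lowest Fcgr3 among the oxaliplatin libraries, while Fcgr2b in both is above all vehicle libraries.

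Oxaliplatin libraries 3 and 4 stood apart in their neutrophil RNA. The sum of 13 neutrophil markers, granule and surface genes such as Ltf, Camp and Ly6g, was 19133, 22005, 21619, 23177 and 22480 CPM with vehicle. With oxaliplatin it was 23552, 22065, 7433, 10448 and 28619 CPM. None of the 13 markers was called in edgeR or DESeq2, 0 had an unadjusted p under 0.05, and Ly6g had a log2 fold change of -0.32 ± 0.352 (adjusted p = 0.536, edgeR). Other myeloid lists set the same 2 apart from the remaining oxaliplatin libraries. The macrophage sum was 1824 and 2668 CPM in replicates 3 and 4 against 2969 to 3749 CPM, and the monocyte sum 967 and 1332 against 1465 to 1863 CPM. The promyelocyte sum was higher in them, 4213 and 3342 against 2569 to 2703 CPM. Fcgr3, Fcgr4 and Fcer1g were lowest in the same 2 oxaliplatin libraries, and the part of each cell type in this was not tested. Without oxaliplatin libraries 3 and 4, an alternative added after the data were seen, the log2 fold change was 0.98 ± 0.0834 for Fcgr3, 0.95 ± 0.114 for Fcgr4, 1.74 ± 0.104 for Fcgr2b and 1.09 ± 0.179 for Fcgr1. Fcer1g then had 0.27 ± 0.0809 (adjusted p = 0.0178, edgeR), under the 1.5-fold threshold. The count of called genes was 5 of 6 with and without them.

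Fcgr3 and Fcer1g moved together from library to library but not between the groups. The log2 ratio of Fcgr3 to Fcer1g was -0.53, -0.47, -0.53, -0.50 and -0.48 in the vehicle libraries. With oxaliplatin it was 0.20, 0.33, 0.09, 0.18 and 0.09. The narrow ranges did not overlap, and replicates 3 and 4 lay inside the oxaliplatin range. The ratio of Fcgr4 to Fcer1g rose likewise from a mean of -3.38 to -2.79 and that of Fcgr2b to Fcer1g from -1.17 to 0.33, both without overlap. Fcgr1 to Fcer1g went from -4.17 to -3.09 with overlap. These ratios to Fcer1g were not tested.

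The ratio of an activating to the inhibitory receptor within a library hardly depends on how libraries are scaled, so it compares the balance directly. It was taken from log2 CPM with a prior count of 2 (about 2 counts, scaled to library size, added to each value). The log2 ratio of Fcgr3 to Fcgr2b was 0.64, 0.69, 0.67, 0.87 and 0.51 in vehicle bone marrow. After oxaliplatin it was -0.33, -0.03, -0.07, -0.44 and 0.13, below every vehicle library. The mean fell by 0.82 on the log2 scale (exact two-sided permutation test over 5 against 5 libraries, p = 0.00794, the smallest it can give, adjusted p = 0.0238 over 6 ratios). The ratio of Fcgr4 to Fcgr2b fell by 0.91, from -2.21 ± 0.231 to -3.12 ± 0.370 (SD, n = 5), with no overlap and the same exact p values (p = 0.00794, adjusted p = 0.0238). For Fcgr1 to Fcgr2b the mean difference was -0.43, with overlap (exact permutation test, p = 0.0873, adjusted p = 0.143). With 1 library left out that difference ranged from -0.53 to -0.28. It passed only without oxaliplatin replicate 3 (-0.53, adjusted p = 0.0159, exact permutation test) and was smallest (-0.28) without vehicle replicate 4. The vehicle library with the highest Fcgr1, replicate 4, had a ratio of -2.42 against -3.17 to -3.07 in the other vehicle libraries.

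**Figure D3:**
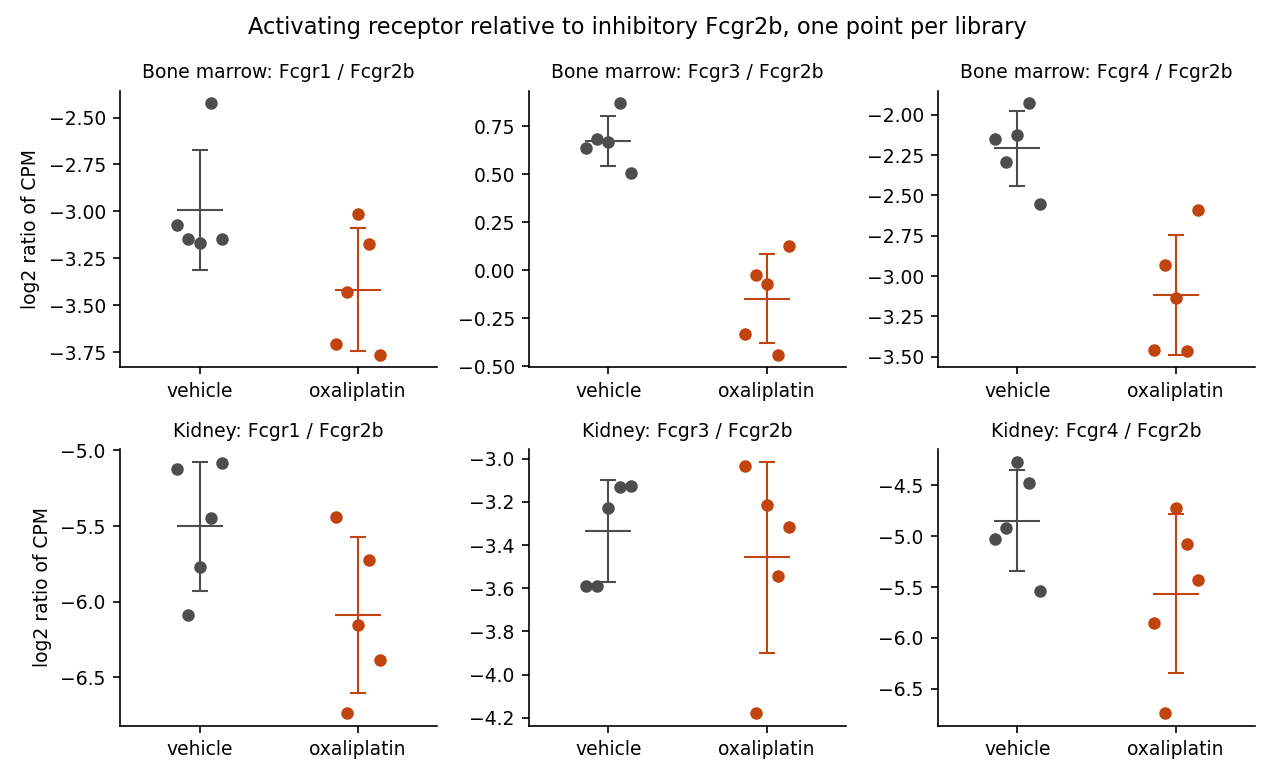
Log2 ratio of Fcgr1, Fcgr3 and Fcgr4 to Fcgr2b in each library, from CPM with a prior count of 2. Means and SD are of 5 libraries, in bone marrow (top) and kidney (bottom), and the y axes differ between panels. The bone marrow ratios of Fcgr3 and Fcgr4 to Fcgr2b do not overlap between treatments, and the kidney ratios do.

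Per kb, Fcgr2b went from 13.2% to 21.1% ± 2.70 of the summed RNA of the 4 IgG-binding receptors in bone marrow. Fcgr3 went from 70.0% to 63.1% ± 2.22 and remained the most abundant of the 4. Neither range overlapped between the treatments: Fcgr2b took 11.5% to 14.8% with vehicle and 17.9% to 24.3% with oxaliplatin, and Fcgr3 69.3% to 71.0% and 59.6% to 65.4%. Fcgr4 went from 13.1% to 11.2% and Fcgr1 from 3.72% to 4.52%. By the length of the longest coding transcript, Fcgr2b went from 16.8% to 26.2%.

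**Figure D4:**
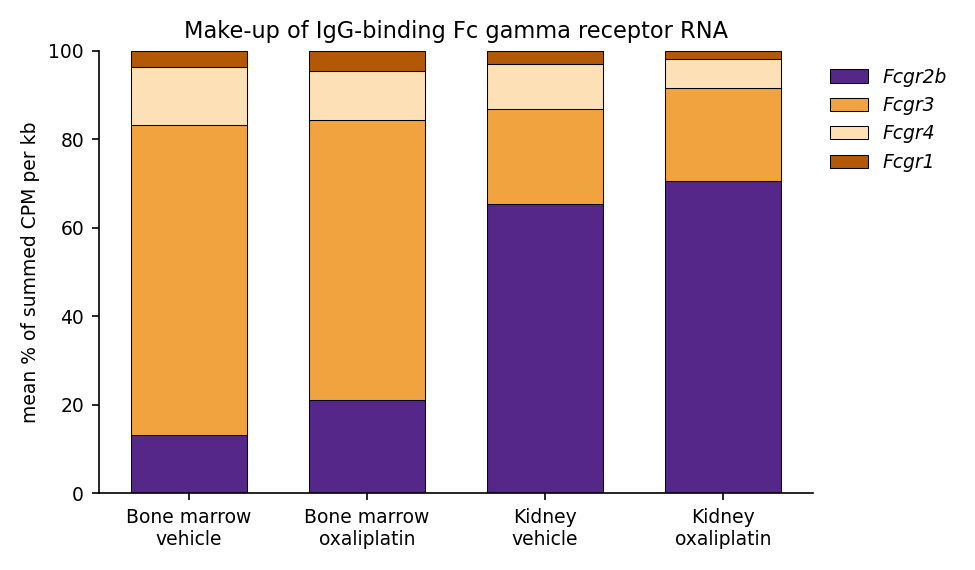
Mean share of each of the 4 IgG-binding Fc gamma receptors in their summed CPM per kb of exon, for 5 libraries per tissue and treatment. Fcgr3 makes up most in bone marrow (70.0% with vehicle, 63.1% with oxaliplatin) and Fcgr2b most in kidney (65.4% and 70.5%).

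In kidney the receptors were lower after oxaliplatin. Fcgr1 was 2.34-fold lower, Fcgr4 2.34-fold, Fcgr3 1.52-fold and Fcgrt 1.51-fold, and these 4 of the 6 genes were called lower, where 3.81% of the 19293 tested genes were. None was called higher, where 7.68% were. Fcgr2b was 1.39-fold lower and Fcer1g 1.35-fold, both short of the 1.5-fold threshold. The median log2 change was -0.60 over the 6 genes and 0.02 over all tested genes.

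Fcgrt, by far the most abundant member in kidney, stood at 329, 320, 315, 330 and 355 CPM with vehicle and at 243, 222, 219, 207 and 197 CPM with oxaliplatin. The groups did not overlap, as held for 11.0% of tested genes in this direction, and the log2 fold change was -0.60 ± 0.069 (adjusted p = 1.2e-05, edgeR). The estimate sits just past the 1.5-fold threshold and lost the call without vehicle replicate 5 or oxaliplatin replicate 4 or 5 (-0.57 to -0.55), with adjusted p values of 2.0e-05 to 8.7e-05 in edgeR. Fcgr2b stood at 39.0, 33.4, 34.6, 31.3 and 35.3 CPM with vehicle and at 24.9, 29.3, 25.6, 26.1 and 18.6 CPM with oxaliplatin. These did not overlap either (log2 fold change -0.48 ± 0.101, adjusted p = 0.00188, edgeR).

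Fcgr1 and Fcgr4 rested on few counts in kidney, where 3 counts amount to 0.0900 to 0.130 CPM. Fcgr1 had 11 to 28 counts per vehicle library and 5 to 14 per oxaliplatin library. In CPM it was 1.05, 0.42, 0.56, 0.64 and 0.97 with vehicle and 0.50, 0.20, 0.29, 0.42 and 0.15 with oxaliplatin, of which 3 were below every vehicle library. Its log2 fold change was -1.23 ± 0.400 (adjusted p = 0.0283, edgeR). Fcgr4 was 1.12, 1.03, 1.73, 1.33 and 0.69 CPM with vehicle and 0.36, 0.20, 0.90, 0.70 and 0.36 CPM with oxaliplatin (log2 fold change -1.22 ± 0.378, adjusted p = 0.0211, edgeR). Here too 3 oxaliplatin libraries were below every vehicle library. Fcgr3 was 3.17, 2.71, 3.63, 3.50 and 3.97 CPM with vehicle and 2.98, 1.55, 2.70, 2.18 and 1.80 CPM with oxaliplatin (log2 fold change -0.60 ± 0.197, adjusted p = 0.0291, edgeR). Fcer1g ranged from 2.82 to 4.17 CPM with vehicle and from 1.94 to 3.16 CPM with oxaliplatin (log2 fold change -0.43 ± 0.190, adjusted p = 0.0967, edgeR).

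The kidney calls depended on single libraries. Leaving out 1 library left 0 to 4 members called: 2 without vehicle replicate 3 or oxaliplatin replicate 2 or 4, 1 without vehicle replicate 5 and 0 without oxaliplatin replicate 5. All 6 estimates stayed below 0 in these fits. With library size as the only scaling, which raised the median of all kidney genes by 0.133 log2 units and took higher calls from 66.8% to 82.7% of all calls, Fcgr3 and Fcgrt were at -0.47 and 2 members were called. With at least 10 counts required in every library, 0 were called in edgeR, as Fcgr1 and Fcgr4 were then not tested and Fcgr3 and Fcgrt were both at -0.57 or -0.58 with adjusted p values of 0.0335 and 1.7e-05. In kidney no activating-to-inhibitory ratio passed the exact permutation test. The mean log2 ratio to Fcgr2b differed by -0.59 for Fcgr1 (p = 0.0952, adjusted p = 0.143 in the exact test), by -0.72 for Fcgr4 (exact p = 0.119, adjusted p = 0.143) and by -0.12 for Fcgr3 (exact p = 0.643, adjusted p = 0.643). All 3 overlapped between treatments. The prior count of 2 shrinks ratios of low counts. Under the other settings the difference reached -0.79 for Fcgr1 and -0.87 for Fcgr4, and neither ratio passed. Fcgr2b took 70.5% ± 6.63 of the 4 receptors per kb after oxaliplatin against 65.4% with vehicle.

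**Figure D5:**
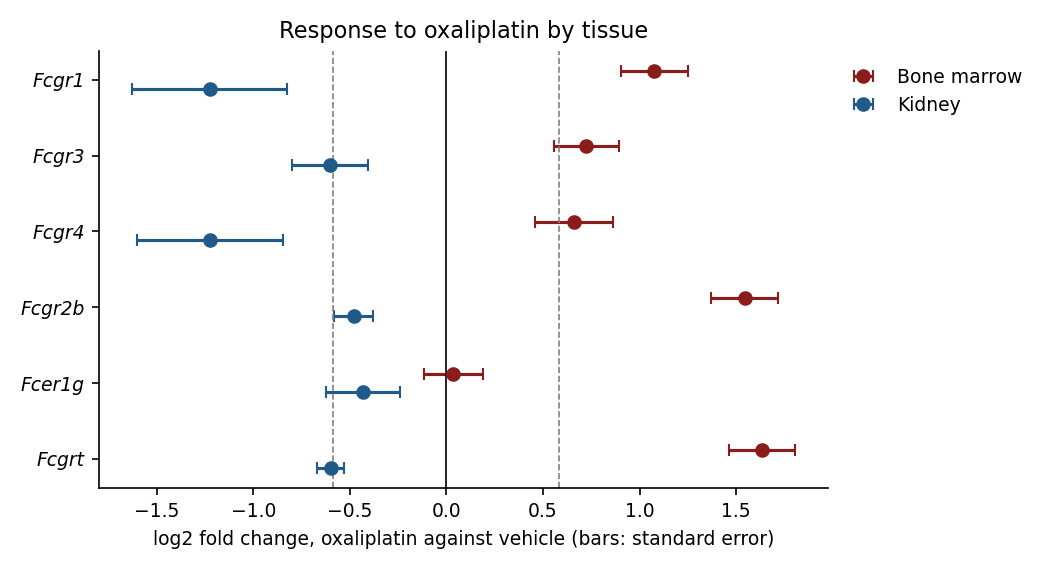
Log2 fold change of each gene, oxaliplatin against vehicle, with its standard error, in bone marrow and kidney (5 libraries per group); dashed lines mark 1.5-fold. Bone marrow estimates lie above 0 and kidney estimates below 0, with Fcer1g in bone marrow at 0.035.

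The difference between the tissues was tested itself, as the interaction of tissue and treatment over 20 libraries. For 5 of the 6 genes the bone marrow response was higher than the kidney response by the same call rule, where 12.8% of 24321 genes were. The responses differed by 2.37 ± 0.385 log2 units for Fcgr1 (adjusted p = 6.3e-05), 2.07 ± 0.205 for Fcgr2b (adjusted p = 1.1e-07), 1.38 ± 0.242 for Fcgr3 (adjusted p = 1.5e-04), 1.94 ± 0.399 for Fcgr4 (adjusted p = 7.6e-04) and 2.29 ± 0.182 for Fcgrt (adjusted p = 5.8e-09), all in edgeR. For Fcer1g the difference was 0.52 ± 0.220 (adjusted p = 0.0797, edgeR). Without marrow oxaliplatin libraries 3 and 4 it was 0.70 ± 0.175 (adjusted p = 0.00391, edgeR) and was called. Fcgr1, Fcgr3, Fcgr4 and Fcgrt were called higher in bone marrow and lower in kidney, a pattern of 110 of the 17507 genes tested in both tissues (0.628%). Fcgrt was still 1.59 times higher in kidney than in bone marrow after oxaliplatin, against 7.75 times with vehicle.

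The list counts that follow stand against 11.6% called higher and 11.8% lower of all tested genes in bone marrow, and 7.68% and 3.81% in kidney, and no list was tested against those shares. Of 29 genes of Fc receptor signalling, which lie downstream of the activating receptors, 1 was called higher and 1 lower in bone marrow, and the median log2 change was -0.05. Short of the 1.5-fold threshold, the adaptor Lcp2 was at 0.52 (adjusted p = 8.8e-04), and the kinases Btk at 0.54 (adjusted p = 0.00244), Tec at 0.44 (adjusted p = 0.00574) and Fyn at 0.34 (adjusted p = 0.0211, edgeR), of which Lcp2 and Btk did not overlap between the groups. Gab2, an adaptor of the gamma chain pathway, rose by 0.63 ± 0.0955 log2 units (adjusted p = 2.1e-04), and Malt1, which links Card9 and Bcl10 to NF-kB, fell by 0.62 (SE 0.145, adjusted p = 0.00523, edgeR). Syk itself went from 553 ± 22.1 to 439 ± 63.4 CPM (SD, n = 5) and was not called (log2 fold change -0.33, adjusted p = 0.0331, edgeR). In kidney 3 were called lower and 0 higher, with a median of -0.21. These were Syk (-0.65 ± 0.177), the kinase Btk (-1.17 ± 0.373) and the exchange factor Vav1 (-0.75 ± 0.264), all under 4 CPM on average.

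Among 13 inhibitory phosphatases and adaptors, 3 were called higher and 0 lower in bone marrow. The median log2 change of the 13 was -0.14 there, against -0.04 over all tested genes. The adaptor Dok2, which dampens signalling of tyrosine kinases, rose from 41.9 ± 3.29 to 115 ± 40.3 CPM (SD, n = 5; log2 fold change 1.46 ± 0.182, adjusted p = 5.2e-05, edgeR). The phosphatases Inppl1 (SHIP2; 0.62 ± 0.117) and Ptpn11 (SHP2; 0.59 ± 0.108) rose less. Inpp5d, the phosphatase that Fcgr2b recruits, was at 280 ± 10.1 and 244 ± 36.8 CPM (log2 fold change -0.20, adjusted p = 0.176, edgeR). None of the 13 was called in kidney in edgeR or DESeq2, 4 had an unadjusted p under 0.05, and the median was -0.07.

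Of 16 tested receptors and adaptors that share or resemble Fcer1g, 2 were called higher and 2 lower in bone marrow, near the shares of all tested genes. Clec4n (Dectin-2), which signals through the same gamma chain, rose from 5.00 ± 0.627 to 25.7 ± 8.30 CPM (log2 fold change 2.36 ± 0.207, adjusted p = 3.0e-06, edgeR), and Oscar, an osteoclast-associated partner of the chain, rose by 1.47 ± 0.324. Ncr1, an NK cell receptor, fell by 1.00 (SE 0.256) and Ms4a2, the beta chain of the IgE receptor, fell by 0.93 (SE 0.266). Tyrobp (DAP12), the sister adaptor, was at 216 ± 17.1 and 193 ± 66.7 CPM in bone marrow (adjusted p = 0.609, edgeR). In kidney 1 of 4 tested was called higher and 2 lower, among them Tyrobp, from 3.57 ± 0.878 to 1.74 ± 0.538 CPM (log2 fold change -1.04 ± 0.230, adjusted p = 0.00278, edgeR).

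A list of other Fc receptors and related genes, which also holds the complement receptors Cr2 and Cr1l and the IgG-binding Trim21 and Fcrl5, had 6 of 11 called lower and 1 higher in bone marrow. Cr2 is among the 6. The 3 with the largest falls at a log2 CPM of 1 or more are B cell genes. Fcrla fell by 3.32 log2 units (SE 0.225), the IgM receptor Fcmr fell by 2.48 (SE 0.300) and the low-affinity IgE receptor Fcer2a fell by 1.99 (SE 0.267). The 12 B cell markers summed to 405 to 713 CPM with vehicle and 118 to 186 CPM with oxaliplatin, and 10 of the 12 were called lower. Fcgr2b, which B cells also carry, rose in the same libraries, and the part of B cell RNA in its values was not tested. In kidney 1 of 6 was called lower and 0 higher: Fcamr, a receptor for IgA and IgM, fell by 1.10 log2 units (SE 0.203), from 50.5 to 23.5 CPM. The 4 IgG heavy chain constant genes were not called in bone marrow in edgeR (adjusted p = 0.280 to 0.601, 0 with an unadjusted p under 0.05, median log2 change 0.05) or in DESeq2, and did not pass the count filter in kidney. Neither partner of the neonatal receptor, B2m or albumin, was called in either tissue in edgeR or DESeq2, and 1 in bone marrow and 0 in kidney had an unadjusted p under 0.05. B2m was at 607 ± 93.9 and 744 ± 84.5 CPM in bone marrow and at 146 ± 16.0 and 159 ± 47.2 CPM in kidney.

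Genes that respond to cytokines known to set Fc receptor levels were counted too. Interferon gamma is known to raise Fcgr1 and Fcgr4. Of 14 of its target genes, 5 were called higher and 1 lower in bone marrow. In kidney 0 were called in edgeR or DESeq2, and 1 had an unadjusted p under 0.05. In bone marrow the chemokine Cxcl9 rose by 2.90 ± 0.357 log2 units, the GTPases Iigp1 by 2.42 ± 0.310 and Gbp2 by 1.67 ± 0.279. Ciita was called lower (log2 fold change -0.67, adjusted p = 0.0366), and Irf1 (0.16, adjusted p = 0.381) was not called in edgeR. Of 14 genes of the IL-4 and IL-10 pathways, 5 were called higher and 1 lower in bone marrow. Retnla rose from 0.709 ± 0.146 to 26.6 ± 15.7 CPM, the feedback inhibitor Socs3 from 17.1 ± 2.19 to 57.2 ± 7.03 CPM and the mannose receptor Mrc1 from 198 ± 31.7 to 551 ± 236 CPM. Cd209a was called lower (log2 fold change -1.35, adjusted p = 0.0209, edgeR). In kidney 2 of 8 were called higher (Mrc1 and Socs3) and 1 lower (Il10ra, the IL-10 receptor, -0.69 ± 0.232). The part of these cytokines in the receptor results was not tested. Of the complement receptors that act with Fc receptors, C3ar1 rose in bone marrow from 13.3 ± 1.74 to 46.4 ± 13.1 CPM, 1 of 6 tested, and Itgax fell in kidney by 0.85 log2 units (SE 0.229), 1 of 4.

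Markers of cells that carry these receptors moved with them in part. In bone marrow, 5 of 15 macrophage markers were called higher and 3 lower, and their sum was 1678 to 2317 CPM with vehicle and 1824 to 3749 CPM with oxaliplatin. The complement genes C1qa (1.37 ± 0.174) and C1qb (1.17 ± 0.164) rose, Timd4 fell by 2.94 (SE 0.479) and Spic fell by 1.06 (SE 0.160), and the pan-macrophage gene Adgre1 (0.20 ± 0.168, adjusted p = 0.405, edgeR) was not called. In kidney, 5 of 10 tested were called lower and 1 higher, and the sum went from 234 to 268 CPM with vehicle to 187 to 209 CPM with oxaliplatin without overlap. Adgre1 fell there by 1.07 (SE 0.199), C1qc fell by 0.96 (SE 0.138) and Csf1r, the receptor that macrophages need, fell by 0.89 (SE 0.111). In kidney 5 of the 15 macrophage markers, Spic, Cd163, Cd5l, Marco and Timd4, stayed under 1 CPM in every library. The part of macrophage RNA in the receptor results was not tested.

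Of 11 endothelial markers, 6 were called higher and 0 lower in bone marrow, and 4 higher and 0 lower in kidney. Their sum went from 535 to 643 CPM to 818 to 1471 CPM in bone marrow and from 479 to 497 CPM to 590 to 802 CPM in kidney, with no overlap in either. Sinusoidal endothelium is known to carry Fcgr2b, and of its markers Stab1 rose in bone marrow by 1.63 ± 0.276, whereas Stab2 was at 0.46 ± 0.175 (adjusted p = 0.0595, edgeR). In kidney Stab2 rose by 0.87 ± 0.194 while Fcgr2b was lower. The part of endothelial RNA in the Fcgr2b values was not tested. Of the other cells that carry the receptors, NK cell markers in bone marrow were called lower in 4 of 8, monocyte markers lower in 3 and higher in 2 of 11, and mast cell, basophil and eosinophil markers lower in 6 and higher in 3 of 10. Promyelocyte markers were called in 0 of 6 in edgeR (2 with an unadjusted p under 0.05) and 1 in DESeq2. In kidney the monocyte list had 2 called higher and 3 lower of 10, and its sum was dominated by Ace, which the tubule also expresses. Neutrophil markers in kidney summed to 2.43 to 3.54 CPM with vehicle and 4.26 to 7.26 CPM with oxaliplatin, with 10 of the 13 under 1 CPM in every kidney library, and their part in the kidney results was not tested.

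The tissue labels were checked against defining markers. Slc34a1, a proximal tubule transporter, was at 8524 ± 223 and 7011 ± 1058 CPM in kidney and under 1 CPM on average in bone marrow. The whole list of 7 proximal tubule markers summed to 16549 to 19222 CPM with vehicle and 13558 to 16915 CPM with oxaliplatin in kidney. In bone marrow it summed to 587 to 951 CPM with vehicle and 67.3 to 169 CPM with oxaliplatin, mostly from the water channel Aqp1 (790 and 107 CPM on average), which red cells also express, and 4 of the 7 stayed under 1 CPM in every library. Markers of podocytes, which are known to express Fcgrt, were called higher in 4 of 5 in kidney while Fcgrt was lower, and 1 of 7 proximal tubule markers was called lower. The neutrophil sum above was at least 7433 CPM in bone marrow and at most 7.26 CPM in kidney. In bone marrow 10 of 10 erythroid markers were called lower, with a sum of 30248 to 53273 CPM with vehicle and 3837 to 10360 CPM with oxaliplatin, and 1 of 7 T cell markers was called lower.

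The genes most like each member were sought by Pearson's r of log2 CPM over all 20 libraries among 13662 genes, as a description in which the difference between the tissues weighs most. Fcgr1 was most like C1qa (r = 0.991), C1qc (0.991) and Ctss (0.990). Fcgr2b was most like Vegfc (0.982), Mob3c (0.970) and Chrdl1 (0.963), Fcgr3 like Laptm5 (0.995), Sla (0.994) and Tmsb4x (0.994), and Fcgr4 like Cd300c2 (0.986), Gm19719 (0.985) and Tlr1 (0.984). Fcer1g was most like Coro1a (0.999), Spi1 (0.998) and Pik3cg (0.998), and Fcgrt like Cd302 (0.986), Ctsl (0.985) and Adam9 (0.985). With each group's mean subtracted, r fell to between 0.396 and 0.835 for these pairs. Among the members themselves, over 10 bone marrow libraries with group means subtracted, r was 0.976 for Fcgr3 with Fcer1g, 0.947 for Fcgr4 with Fcer1g and 0.932 for Fcgr3 with Fcgr4, and 0.211 for Fcgr1 with Fcer1g. Fcgr1 went most with Fcgrt (0.772). In kidney the same r was 0.838 for Fcgr1 with Fcer1g and 0.365 for Fcgr3 with Fcer1g.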

How the data were processed

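Gene counts for bone marrow and kidney were deposited by the authors as 1 table per tissue, with whole-number counts per Ensembl gene (release 101, GRCm38) of reads aligned with STAR. The counter is named in 2 ways (Partek Flow in the methods, featureCounts in the submitters' processing notes), and so is the library chemistry (SMARTer, or ribosomal RNA removal with random hexamers). Of 55774 lines, 287 repeated a gene and 1 lacked a value, which left 55486 genes.

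Counts were tested per tissue with edgeR 4.0.16 (R 4.3.3, robust quasi-likelihood test, TMM scaling, edgeR's expression filter with a minimum count of 10), and the difference between tissues as an interaction over 20 libraries. Calls required an adjusted p (Benjamini-Hochberg) below 0.05 together with a change beyond 1.5-fold. CPM are TMM-scaled within a tissue unless said otherwise. Ratios between genes are differences of log2 CPM with a prior count of 2, and those to Fcgr2b were tested by exact permutation in scipy 1.17.1. Floors of 3 counts cover counting error only, whereas SDs and edgeR's standard errors include variation between libraries. Exon lengths came from GENCODE M21 (GRCm38), and promoters from RefSeq (GRCm38.p6). The fit was tested on simulated data.

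The members and gene lists were chosen with earlier results of these data known. Genes named are the members, up to 3 called genes per list with the largest rise and fall among those whose log2 CPM averaged 1 or more, the defining markers of a cell type and the 3 genes most like each member. Btk and Vav1 in kidney, Syk, Lcp2, Btk, Tec, Fyn and Tyrobp in bone marrow, Cr2, Inpp5d, Irf1 and B2m fall outside this rule and were chosen after their values were seen. Alternatives were DESeq2 1.42.0 with its size factors, library size alone, hemoglobin genes left out, other count filters, a covariate for Y-linked RNA, a replicate block and each library left out in turn. Whether both tissues came from the same mice is not given in the labels. A few genes are not reported here.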

Additional observations from a re-analysis of the deposited data

Results flagged for a closer look

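Among the 36 groups of 5 libraries checked for a single distant library, 2 had one, and chance gives about 5% of groups. Fcgr1 was at 15.1 CPM in bone marrow vehicle replicate 4, against 9.21 to 10.9 CPM in the other 4. The log2 ratio of Fcgr1 to Fcgr2b in the same library was -2.42, against -3.17 to -3.07.

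The response to oxaliplatin differed between bone marrow and kidney for 5 genes by the interaction test in edgeR. The bone marrow response was higher by 2.37 log2 units for Fcgr1, 2.07 for Fcgr2b, 1.38 for Fcgr3, 1.94 for Fcgr4 and 2.29 for Fcgrt.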

How the results depend on the processing

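In bone marrow 5 genes were called, 3 with the Y-linked covariate and 4 to 5 with 1 library left out. In kidney 4 were called, 2 with library size alone, 0 with at least 10 counts in every library and 0 to 4 with 1 library left out. The tissue difference was called for 5 genes, for 3 with at least 10 counts in every library, where Fcgr1 and Fcgr4 were not tested, and for 5 to 6 with 1 library left out. Fcer1g in bone marrow had a log2 fold change of -0.24 with the Y-linked covariate, -8.2e-04 with the replicate block and -0.019 to 0.15 with 1 library left out, below 0 without oxaliplatin replicates 1 (-0.019), 2 (-0.016) and 5 (-0.017). The cause was not tested.

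Deviations of same-numbered libraries from their group means correlated between -0.154 and 0.228. Differently numbered libraries were not set beside them, so this cannot decide whether replicate numbers pair the libraries. With the replicate block, 4968 genes were called in bone marrow against 5221, 2017 against 2216 in kidney and 5350 against 5759 for the tissue difference, and Fcgr4 in bone marrow was at 0.60 (adjusted p = 0.0642, edgeR). The bone marrow ratios to Fcgr2b under the block were -0.82 for Fcgr3 and -0.91 for Fcgr4, each with an adjusted p of 0.125 in an exact sign-flip test over 5 numbers that cannot go below 0.0625 unadjusted.

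With 1 library left out, the difference in the ratio of Fcgr1 to Fcgr2b in bone marrow ranged from -0.53 to -0.28, and that of Fcgr3 to Fcgr2b in kidney from -0.23 to 0.058, above 0 only without oxaliplatin replicate 2. Depth limited the kidney values of Fcgr1 and Fcgr4, which rest on 5 to 40 counts per library.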
